A study of Homo sapiens with 4 samples.

Results

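The genes examined are 10 members of the ERBB receptor and EGF ligand family, taken by name from a table of 61860 genes: the receptors EGFR, ERBB2 and ERBB3, and the ligands TGFA, AREG, EPGN, HBEGF, EREG, BTC and NRG1. All 10 were found, and all 10 had at least 50 counts in every sample. RNA was sequenced from HT1376, an established line labelled as bladder cancer cells, after 48 h with 1 nM enfortumab vedotin (EV, n = 2) or with a control named WFI in the labels (n = 2). EV is an antibody against nectin-4 that carries monomethyl auristatin E, a drug that disrupts microtubules. The labels give a single contrast, and the question it addresses here is which receptor and ligand transcripts differed after EV. They do not say whether the replicates were separate cultures, so the p-values measure only how far these samples differ, and part of that may be technical.

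ERBB receptors are tyrosine kinases of the cell surface that pair with one another when a ligand binds, and they signal through the RAS-ERK and PI3K-AKT routes. Most ligands of the family are made as membrane-bound precursors, and proteases of the ADAM family cut them free. In the urothelium and in bladder cancer the family is known for driving epithelial growth and repair. TGFA, AREG and EPGN are known as ligands of EGFR. HBEGF, EREG and BTC also bind ERBB4, and the neuregulin NRG1 binds ERBB3 and ERBB4. ERBB2 has no known ligand of its own, and ERBB3 has a weak kinase and acts through its partners.

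Libraries held 19368791 to 20727175 counts. Levels are given in CPM, a depth-normalized count, with library sizes scaled by TMM factors, so a rise or fall is relative to the other genes of the same sample, and fewer cells and less RNA per cell cannot be told apart. Of 17465 genes tested, 11528 (66.0%) passed an adjusted p of 0.05 in the quasi-likelihood test of edgeR, 34.5% higher and 31.5% lower in EV. Of the genes tested 2020 reached the count filter in EV only and 1328 in WFI only, and 0 of the 10 members did so. With scaling by total counts alone, which shifted the median log2 fold change of all genes from 0.02 to -0.16, 42.1% of calls were higher in place of 52.2%. NECTIN4, the antigen of the antibody, had 28 and 29 counts in the WFI samples against 9 and 6 in the EV samples. Its mean level was thus low already in the controls, at 1.37 CPM against 0.402 CPM in EV (log2 fold change -1.76, SE 0.54). The labelled cell type was checked against 17 urothelial and epithelial markers. KRT7, KRT8 and KRT18 were abundant, and FOXA1 and PPARG were expressed, with 453 and 444 and with 731 and 774 counts in the WFI samples. KRT20 had 0 counts in all samples, UPK3A had 0 in the controls and 1 in EV, and CDH1, KRT19 and GRHL2 had 1, 7 and 0 counts over both controls. KRT5, TP63 and UPK1B had 0 counts over both controls, and UPK1A, EPCAM, UPK2 and GATA3 had 3, 9, 10 and 35. All 4 mesenchymal markers listed were expressed in the controls. VIM and FN1 were abundant, and CDH2 and ZEB1 stood at means of 154 and 73.9 CPM. The markers thus went with the labelled cell type only in part, and the identity of the line was not checked beyond these markers.

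The promoter windows shown here belong to the ligand that rose most among the members, to the receptor that fell most, and to 3 neighbouring ligand genes of chromosome 4. RefSeq windows on GRCh38.p14 were used for 8 of the 10 members. ERBB3 had no matching window. NRG1 was left out of the search by choice, so its promoter is not described. Each is printed 5′ to 3′ on the strand of its gene, ending just before its RefSeq start site or, for HBEGF, AREG and EREG, just before the first base of the GENCODE 29 gene, which lies upstream of that site and leaves 222, 248 and 248 bases. Capitals mark matches on either strand to a TATA motif (TATAAA), a cyclic AMP response element (TGACGTCA), an AP-1 motif (TGANTCA), a GC box (GGGCGG), a heat shock element or a CArG box. An E-box (CACGTG) was searched too and is not in these windows.
HBEGF, chr5:140346632-140346853, minus strand: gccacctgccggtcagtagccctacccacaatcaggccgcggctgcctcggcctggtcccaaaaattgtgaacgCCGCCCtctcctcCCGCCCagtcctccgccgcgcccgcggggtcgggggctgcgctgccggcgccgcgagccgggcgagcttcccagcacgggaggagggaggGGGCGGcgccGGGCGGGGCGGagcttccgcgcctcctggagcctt
EGFR, first of its start sites, chr7:55018767-55019016, plus strand: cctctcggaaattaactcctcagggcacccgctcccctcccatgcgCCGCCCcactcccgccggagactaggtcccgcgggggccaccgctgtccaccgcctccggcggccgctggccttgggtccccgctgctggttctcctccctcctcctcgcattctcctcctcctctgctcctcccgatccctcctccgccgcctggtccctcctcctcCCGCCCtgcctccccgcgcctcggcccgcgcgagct
AREG, chr4:74444886-74445133, plus strand: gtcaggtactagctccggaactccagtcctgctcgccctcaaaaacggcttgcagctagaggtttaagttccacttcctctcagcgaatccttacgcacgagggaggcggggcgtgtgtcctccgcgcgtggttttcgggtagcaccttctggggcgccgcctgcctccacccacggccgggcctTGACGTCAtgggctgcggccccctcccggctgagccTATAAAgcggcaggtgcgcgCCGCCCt
EREG, chr4:74364895-74365142, plus strand: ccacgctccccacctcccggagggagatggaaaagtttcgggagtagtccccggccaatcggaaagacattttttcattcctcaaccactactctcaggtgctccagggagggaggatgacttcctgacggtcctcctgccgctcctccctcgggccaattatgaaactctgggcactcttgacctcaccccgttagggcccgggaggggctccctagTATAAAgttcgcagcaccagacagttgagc
EPGN, chr4:74308220-74308469, plus strand: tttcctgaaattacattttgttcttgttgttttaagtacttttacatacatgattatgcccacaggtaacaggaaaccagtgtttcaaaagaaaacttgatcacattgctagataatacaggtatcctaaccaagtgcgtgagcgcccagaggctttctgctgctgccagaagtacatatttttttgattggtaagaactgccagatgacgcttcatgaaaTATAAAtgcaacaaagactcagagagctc
Motifs were counted over the 250 bases before the RefSeq start site, and positions count back from that site, which for HBEGF, AREG and EREG lies beyond the last base printed. HBEGF held 5 GC box matches, of which a neighbouring pair overlap, EGFR held 2 and AREG held 1. At least 1 GC box stood in 42.6% of the 35116 RefSeq windows of that length. AREG, EREG and EPGN each held 1 TATA motif, starting at -29, -32 and -29, against 10.7% of all windows with a match anywhere. AREG also held a cyclic AMP response element at -65, which 1.65% of windows hold. The windows printed for HBEGF, EGFR, AREG, EREG and EPGN had no match to the AP-1, CArG or heat shock letters, which stand in 6.57%, 1.16% and 0.441% of all windows. Of the other member windows, the second EGFR start site held 2 AP-1 and 2 TATA matches, ERBB2 held 1 AP-1 match and the second TGFA start site held 3 GC box matches. These matches describe letters only.

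Of the 10 members 3 were higher, 5 were lower and 2 did not pass the test, so 8 of 10 were called against 66.0% of all genes tested. The change was uneven within the family. HBEGF rose 21.5-fold while EGFR, its main receptor, fell 2.91-fold. NRG1 fell 2.18-fold, TGFA fell 1.72-fold, and ERBB3 rose 2.07-fold from a low level. Among the called members 4 had moved by 1 or more on the log2 scale, against 30.8% of all genes tested. The median log2 fold change of the 10 was -0.09, beside 0.02 for all genes and -0.13 for the 15074 that reached the count filter in WFI. In 9 of 10 members the control and EV values did not overlap, against 82.8% of all genes.

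**Figure D1:**
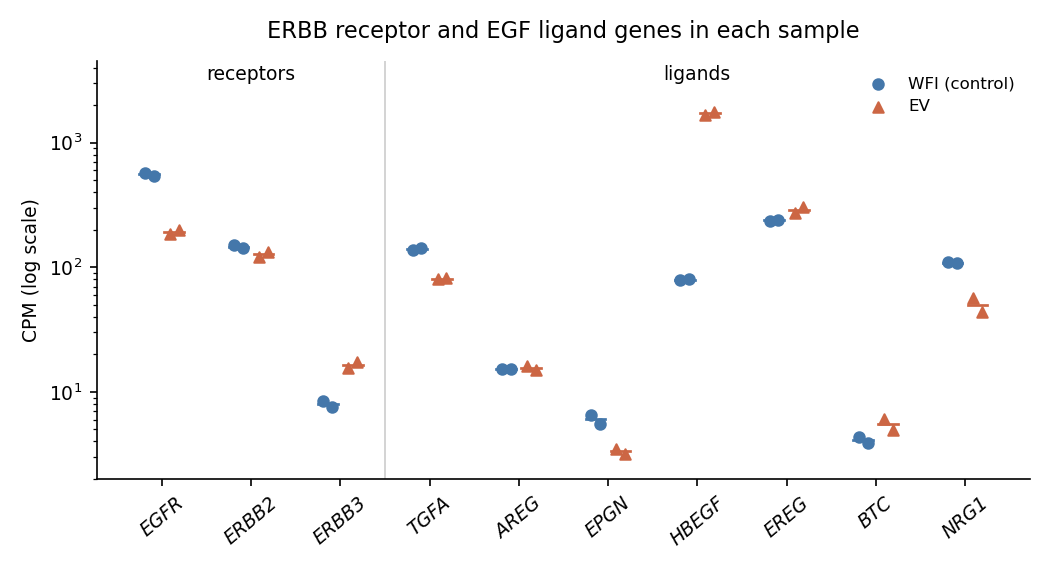
Level of each receptor and ligand gene in CPM (log scale) in the 2 control samples labelled WFI (circles) and the 2 EV samples (triangles), with a line at each group's mean. HBEGF goes from about 79.7 to 1713 CPM, EGFR from 557 to 191 CPM, and only AREG has groups that overlap.

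EGFR, the receptor bound by most ligands of the family, was the most abundant receptor transcript per kilobase of merged exons in the controls. The gene lies on chromosome 7 from 55019021 to 55211628 on the plus strand of hg38. It had 11791 and 11345 counts in the WFI samples against 3369 and 3820 in the EV samples, which is 571 and 542 CPM against 185 and 197 CPM. Both EV samples lay far below both controls. The log2 fold change was -1.54 (SE 0.04, edgeR adjusted p = 1.35e-10), and 7.32% of all genes tested fell as far or further. EGFR-AS1, an antisense gene inside EGFR, had 58 counts in the WFI samples together and 5 in the EV samples together.

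ERBB2, the receptor also known as HER2, lies on chromosome 17 from 39687914 to 39730426 on the plus strand. Its level was 151 and 142 CPM in the controls and 121 and 132 CPM in EV. The groups did not overlap but were close, with a log2 fold change of -0.21 (SE 0.06, edgeR adjusted p = 0.00667). With an offset for spliced length the direction turned (0.24, edgeR adjusted p = 0.00217). ERBB3, on chromosome 12 from 56076799 to 56103505 on the plus strand, had 174 and 157 counts in the WFI samples against 285 and 334 in the EV samples. Its level was higher in both EV samples, going from 7.96 ± 0.651 to 16.5 ± 1.12 CPM (SD, n = 2; log2 fold change 1.05, SE 0.14, edgeR adjusted p = 7.73e-05). ERBB4, the remaining receptor, was close to absent, with 0 and 2 counts in the WFI samples against 6 and 2 in the EV samples, below the count filter.

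The shares of the receptor transcripts did not overlap between the groups. The count ratio of EGFR to ERBB2 within a sample, which no scaling between samples can alter, was 3.78 and 3.82 in the controls against 1.53 and 1.49 in EV. The ratio of EGFR to ERBB3 was 67.8 and 72.3 in the controls against 11.8 and 11.4 in EV. With counts divided by the merged exon length of each gene, EGFR made up 74.6% and 74.8% of the receptor transcripts in the controls against 52.3% and 51.7% in EV. ERBB2 went from 23.9% and 23.8% to 41.5% and 42.1%, and ERBB3 from 1.52% and 1.43% to 6.13% and 6.26%. The shares per kilobase depend on the length used. Per kilobase of the longest annotated transcript, ERBB2 stood above EGFR in EV, at 25.7 against 19.5 CPM per kb. In the controls EGFR stood above ERBB2 with that length too, at 56.7 against 29.7. These shares and ratios were not tested.

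**Figure D2:**
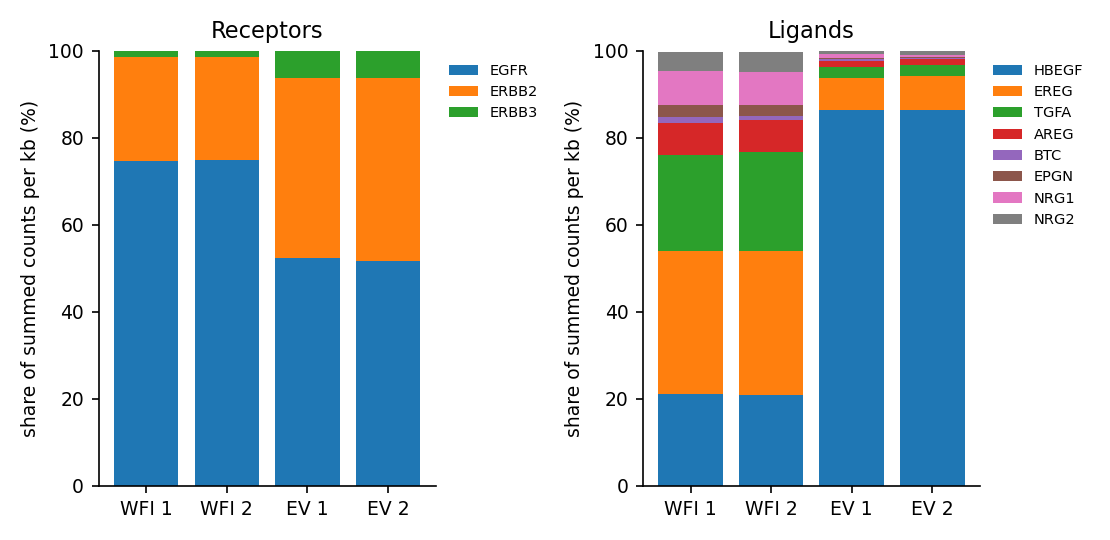
Share of each gene in the summed counts per kilobase of merged exons, in percent, for the receptors (left) and ligands (right) in each of the 4 samples. Genes under 1% in every sample are not drawn. With the longest annotated transcript as length, ERBB2 stood above EGFR in EV. EGFR takes 74.6% and 74.8% in the controls against 52.3% and 51.7% in EV, and HBEGF takes 21.1% and 20.9% in the controls and 86.3% in both EV samples.

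HBEGF, heparin-binding EGF-like growth factor, lies on chromosome 5 from 140332843 to 140346631 on the minus strand. It had 1640 and 1672 counts in the WFI samples against 30494 and 33873 in the EV samples. As levels these are 79.4 and 79.9 CPM against 1676 and 1749 CPM, so replicates differed by little beside the distance between the groups. The log2 fold change was 4.43 (SE 0.04, edgeR adjusted p = 1.8e-14), and 4.60% of all genes tested rose as far or further. HBEGF made up 21.1% and 20.9% of the ligand transcripts per kilobase in the controls against 86.3% and 86.3% in EV. Its count ratio to TGFA went from 0.581 and 0.562 to 21.0 and 21.4.

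EREG, epiregulin, was the most abundant ligand transcript per kilobase of merged exons in the controls. Its level was 236 and 239 CPM in the controls and 272 and 305 CPM in EV. The rise was small (log2 fold change 0.28, SE 0.05, edgeR adjusted p = 0.000552), and with scaling by total counts alone it was 0.10 with an edgeR adjusted p of 0.0899. BTC, betacellulin, had 90 and 81 counts in the WFI samples against 111 and 96 in the EV samples. Its log2 fold change of 0.42 (SE 0.24) did not pass the test (edgeR adjusted p = 0.141), which does not show that the level was equal.

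Of the ligands known to bind EGFR alone, TGFA and EPGN fell and AREG was not called. TGFA, transforming growth factor alpha, lies on chromosome 2 from 70447280 to 70554193 on the minus strand and stood at 137 and 142 CPM in the controls and 79.9 and 81.8 CPM in EV. Both EV samples were lower (log2 fold change -0.79, SE 0.05, edgeR adjusted p = 1.57e-07). AREG, amphiregulin, stood at 15.3 and 15.3 CPM in the controls and 16.2 and 15.0 CPM in EV. These values overlap (log2 fold change 0.03, SE 0.12, edgeR adjusted p = 0.857). EPGN, epigen, had 136 and 115 counts in the WFI samples against 63 and 62 in the EV samples (log2 fold change -0.86, SE 0.24, edgeR adjusted p = 0.00888). Without control replicate 1 the EPGN call was lost (-0.75, edgeR adjusted p = 0.0857).

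NRG1, neuregulin 1, is the ligand through which ERBB3 is usually engaged. The gene lies on chromosome 8 from 31639386 to 32767959 on the plus strand. It stood at 109.6 and 108 CPM in the controls and 56.5 and 43.5 CPM in EV. Both EV samples were lower, and they differed from each other by more than the controls did (log2 fold change -1.13, SE 0.10, edgeR adjusted p = 1.55e-06). NRG1 and ERBB3 thus had opposite directions. Of the other genes of the family, NRG2 stood at 26.0 ± 0.921 CPM in the controls and 24.8 ± 1.54 CPM in EV (SD, n = 2; log2 fold change -0.06, SE 0.10, edgeR adjusted p = 0.604). EGF, the ligand that names the family, had 24 and 44 counts in the WFI samples against 12 and 17 in the EV samples (log2 fold change -1.08, SE 0.50, edgeR adjusted p = 0.0795). NRG4 had 5 and 3 counts in the WFI samples against 1 and 11 in the EV samples. NRG3 had 0 counts in all 4 libraries, which allows a level of up to 0.143 to 0.165 CPM, counting error only.

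EPGN, EREG, AREG and BTC are neighbours and are the only protein coding genes of GENCODE 29 between 74308473 and 74794686 on chromosome 4, a stretch of 486 kb. EPGN and EREG are 49.8 kb apart, EREG and AREG 56.4 kb, and AREG and BTC 289.7 kb. Along the chromosome their log2 fold changes were -0.86, 0.28, 0.03 and 0.42, so the adjacent genes EPGN and EREG were called in opposite directions. Each of these 2 calls held in 11 of 13 alternative settings. The TATA motif shared by EPGN, EREG and AREG went with a fall, a small rise and no call.

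**Figure D3:**
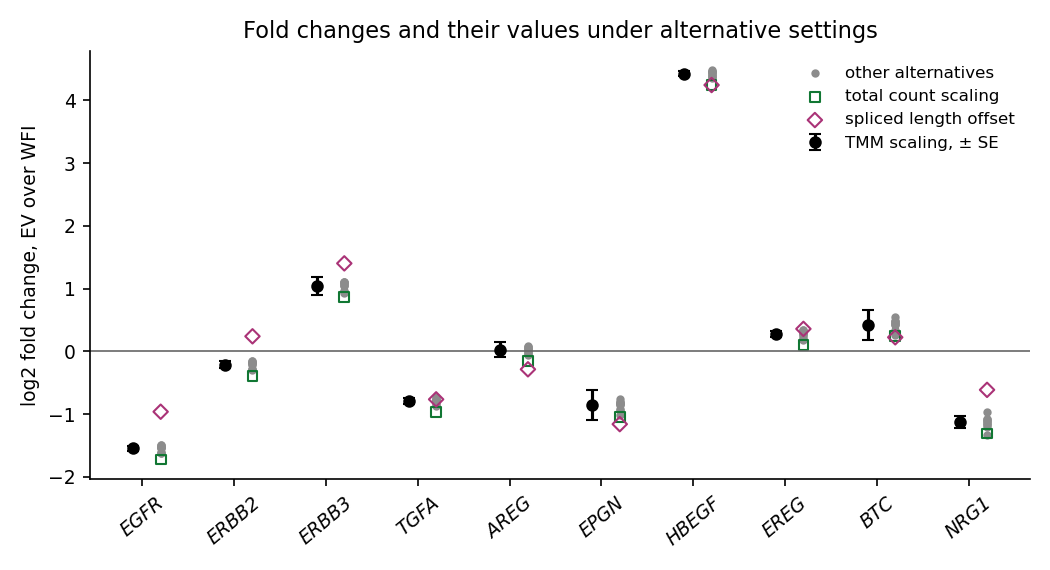
Log2 fold change of EV over WFI for each gene, as fitted with TMM scaling (black, bars are 1 SE of the edgeR fit, 2 samples a group) and under the alternative settings (other symbols). HBEGF stays between 4.25 and 4.48 and EGFR between -1.72 and -0.96, while ERBB2 crosses 0 with the spliced length offset.

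Levels of different genes were compared per kilobase of merged exons. In the controls EGFR stood highest of the 10 at 44.5 ± 1.62 CPM per kb (SD, n = 2), followed by EREG at 41.5 ± 0.456, TGFA at 28.1 ± 0.794 and HBEGF at 26.4 ± 0.121. ERBB2 followed at 14.2 ± 0.617, NRG1 at 9.62 ± 0.0723 and AREG at 9.30 ± 0.0188 CPM per kb. EPGN, BTC and ERBB3 were lowest at 3.33 ± 0.424, 1.46 ± 0.122 and 0.881 ± 0.0720 CPM per kb. In EV the level of HBEGF was 568 ± 17.2 CPM per kb, EREG followed at 50.4 ± 4.04, and TGFA and EGFR stood close together at 16.3 ± 0.268 and 15.3 ± 0.683. ERBB2 stood at 12.3 ± 0.780, AREG at 9.48 ± 0.509 and NRG1 at 4.41 ± 0.813 CPM per kb. BTC, EPGN and ERBB3 did not differ beyond their spread in EV, at 1.96 ± 0.287, 1.84 ± 0.102 and 1.82 ± 0.124 CPM per kb. The order depends on the length used. With the longest annotated transcript ERBB2 stood above EGFR in EV, at 25.7 against 19.5 CPM per kb, and HBEGF stood above TGFA in the controls, at 33.4 against 32.3.

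Spliced length moved with the contrast and differs among the members. Across 13554 tested coding genes, which are not independent replicates, the log2 fold change and the merged exon length had a Spearman rho of -0.331. EGFR and NRG1, with 12521 and 11328 bases, lie in the decile of longest genes, whose median log2 fold change was -0.60. HBEGF, with 3018 bases, lies in a decile with a median of 0.26, and TGFA, with 4963 bases, in one with 0.06. With an offset for spliced length EGFR still fell, by 0.96 on the log2 scale (edgeR adjusted p = 1.59e-09), and NRG1 fell by 0.61 (edgeR adjusted p = 0.000153). HBEGF rose by 4.25 under that offset. ERBB2 turned from -0.21 to 0.24. The merged exon length of ERBB2 is 10321 bases, against 4930 in its longest annotated transcript.

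**Figure D4:**
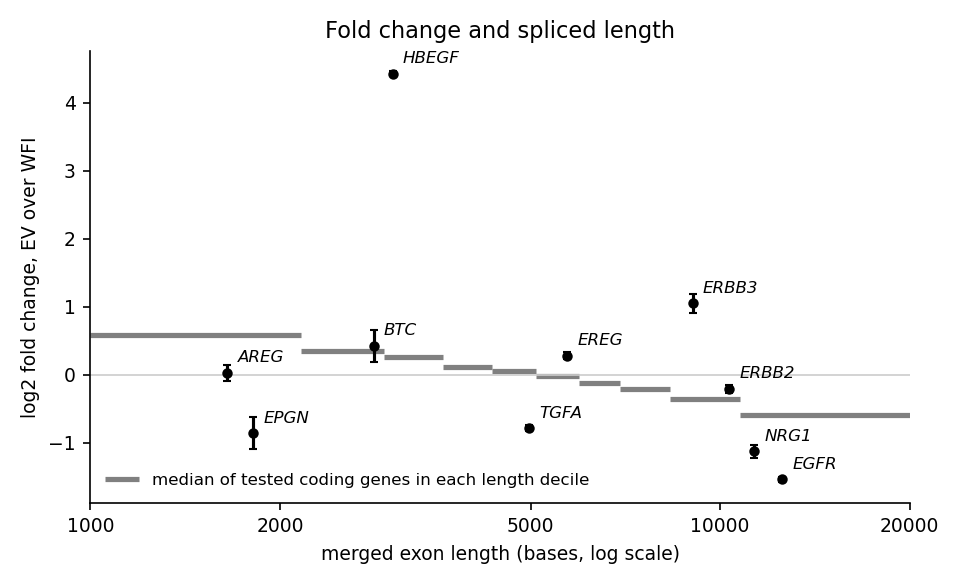
Log2 fold change of each gene (points, bars are 1 SE of the edgeR fit, 2 samples a group) against its merged exon length in bases (log scale), with the median of tested coding genes in each length decile as grey lines. EGFR and NRG1 lie below the line of the longest decile at -0.60, and HBEGF lies far above the line of its decile at 0.26.

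More of the genes that process or release the ligands fell than rose. Of 13 shedding and processing genes, all tested, 9 fell, 3 rose and 1 was not called. The median log2 fold change was -0.67, beside 0.02 for all genes, of which 34.5% were higher and 31.5% lower. Every tested gene of the shedding, regulator, adaptor and ERK lists reached the count filter in WFI. Of the 15074 genes that did so, including those that reached it in WFI only, 4324 were higher and 5506 lower, with a median of -0.13. ADAM10, a main protease of EGF and BTC precursors, fell from 144 ± 0.389 to 78.1 ± 3.22 CPM (SD, n = 2; log2 fold change -0.88, edgeR adjusted p = 6.76e-08), and with the offset for spliced length it fell by 0.15 (edgeR adjusted p = 0.0205). RHBDF1, an inactive rhomboid that escorts the sheddase ADAM17, fell by 1.08 on the log2 scale, and ADAM19 fell by 1.12. ADAM15 rose by 0.63 and the ADAM17 partner NRDC by 0.25, the latter call being lost with total count scaling (0.07, edgeR adjusted p = 0.182). TIMP3, an inhibitor of ADAM17, had 40 and 55 counts in the WFI samples against 69 and 87 in the EV samples (log2 fold change 0.86, edgeR adjusted p = 0.0263). Its call was lost with DESeq2 (adjusted p = 0.0667), with no count filter (edgeR adjusted p = 0.0740), without control replicate 1 (0.215) or EV replicate 2 (0.0736), and with total count scaling (0.0659).

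More of the genes listed as negative regulators of the receptors fell than rose, and how each acts on EGFR in these cells was not tested. Of 20 negative regulators 19 were tested, of which 14 fell, 4 rose and 1 did not pass, and the list median was -0.54. Over all genes 34.5% were higher, 31.5% were lower and the median was 0.02, or -0.13 over genes at the filter in WFI. CBL, a ubiquitin ligase that sends EGFR to degradation, fell from 279 ± 3.18 to 102 ± 10.5 CPM (SD, n = 2; log2 fold change -1.45, edgeR adjusted p = 3.6e-09), and by 0.91 with the offset for spliced length. UBASH3B, a phosphatase that binds CBL, fell by 1.75 on the log2 scale and SPRED2, an inhibitor of RAS-ERK signalling, fell by 1.25. SOCS3, a feedback inhibitor of cytokine signalling, rose from 38.3 ± 1.25 to 335 ± 12.0 CPM (log2 fold change 3.13, edgeR adjusted p = 1.86e-12). SPRY4 rose by 0.65. SPRED1 rose by 0.29, a call lost with total count scaling (0.11, edgeR adjusted p = 0.0957).

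Adaptors and relay genes moved in both directions. Of 31 listed 30 were tested, of which 17 fell, 9 rose and 4 did not pass. The list median was -0.30, beside the same 34.5%, 31.5% and 0.02 over all genes and -0.13 over genes at the filter in WFI. With the offset for spliced length 8 fell and 10 rose. PIK3R1, a regulatory subunit of PI3K, rose from 51.7 ± 0.639 to 181 ± 6.78 CPM (SD, n = 2; log2 fold change 1.81, edgeR adjusted p = 2.28e-10), while the catalytic subunits PIK3CB and PIK3CA fell by 1.43 and by 0.96 on the log2 scale. MAP2K2, which encodes the kinase MEK2, rose by 0.70, and AKT1 rose by 0.39. The offset for spliced length moved AKT1 to 0.89 and PIK3CA to -0.56, and total count scaling moved AKT1 to 0.21.

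Transcripts often read as output of ERK signalling were uneven. Of 10 listed, all tested, 6 rose, 3 fell and 1 did not pass, and the list median was 0.45. All genes had 34.5% higher, 31.5% lower and a median of 0.02, or -0.13 for genes at the filter in WFI. Of these SPRY2 and SPRY4 are also in the list of negative regulators. DUSP6, a phosphatase of ERK, rose from 64.9 ± 2.00 to 312 ± 12.4 CPM (SD, n = 2; log2 fold change 2.27, edgeR adjusted p = 1.72e-11). The ephrin receptors EPHA4 and EPHA2 rose by 2.33 and 1.39. PHLDA1 fell from 673 ± 13.6 to 263 ± 12.6 CPM (log2 fold change -1.36, edgeR adjusted p = 1.9e-10), and SPRY2 fell by 0.45. CCND1, which encodes cyclin D1, fell by 0.12, a call lost with upper quartile scaling (-0.06, edgeR adjusted p = 0.0541).

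**Figure D5:**
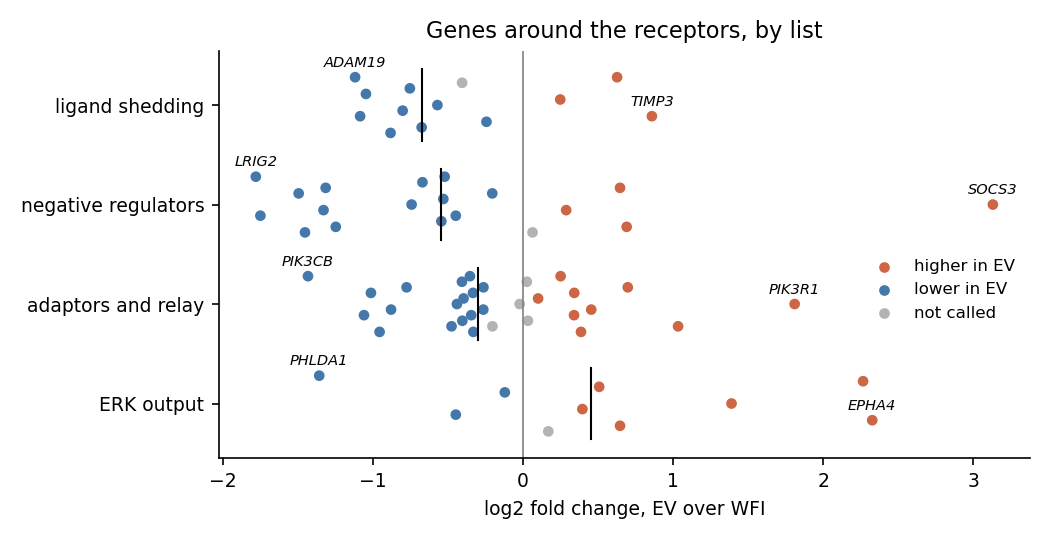
Log2 fold change of EV over WFI for the tested genes of 4 lists around the receptors; each point is a gene, coloured by its edgeR call, and black lines are list medians. The medians are -0.67 for shedding, -0.54 for negative regulators, -0.30 for adaptors and relay and 0.45 for ERK output genes.

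Markers of cell types also moved with the contrast. For comparison, 34.5% of all genes tested were called higher and 31.5% lower in EV. Of the 15074 that reached the count filter in WFI, 4324 were higher and 5506 lower. Of the 17 urothelial and epithelial markers 10 were tested and called higher in EV, of which UPK1A, KRT5, TP63 and EPCAM reached the count filter in EV only and so could only rise. The summed level of the 17 ran from 1607 to 1623 CPM in the controls and from 3457 to 3497 CPM in EV. Of 6 leukocyte markers CD14 was called higher, and so were ITGAM and CD79A, which reached the filter in EV only, with a summed level of 1.55 to 2.29 CPM in the controls and 42.9 to 43.1 CPM in EV. The leukocyte markers PTPRC, LYZ and CD3E had 4, 0 and 0 counts over both controls and 13, 9 and 4 over both EV samples. Of 4 mesenchymal markers 1 rose and 2 fell, with a summed level of 11880 to 12050 CPM in the controls and 7409 to 7510 CPM in EV. Of 4 endothelial markers PECAM1 was called higher, and so was TEK, which reached the filter in EV only, with a summed level of 1.50 to 2.49 CPM in the controls and 6.87 to 8.63 CPM in EV. Of 4 fibroblast markers 0 were called, with a summed level of 11.2 to 12.2 CPM in the controls and 9.04 to 11.7 CPM in EV. Their part in the values of the receptors and ligands was not tested.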

How the data were processed

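RNA-seq of total RNA was analysed in 4 samples of HT1376 cells, grouped by the labels' titles. The values deposited by the authors are raw counts, 1 whole number per gene and sample. Per the labels' protocols the library kit was directional, and per the submitters' processing notes the build was hg38. Not given in the sources used here are the aligner, the counter with its strand setting, and the annotation. Symbols matched 61757 of 61860 identifiers. Coordinates and lengths came from GENCODE 29 on the same build, and promoter windows from RefSeq on GRCh38.p14.

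Counts were tested with edgeR 4.0.16 in R 4.3.3 (TMM, filterByExpr, quasi-likelihood test, group as the only term), with Benjamini-Hochberg adjustment over all 17465 genes tested and a threshold of 0.05. Standard errors of log2 fold changes were derived from the F statistic. CPM used TMM-scaled library sizes. Between replicates, counts over tested genes differed by more than counting noise, with a chi-square per degree of freedom of 2.18 for WFI and 4.52 for EV. The procedure was run on simulated counts with far fewer changed genes than were called here, balanced in direction and without a length trend. That run therefore does not show how the scaling behaves in these data.

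The members and lists were chosen with earlier results of these data known. All members and the rest of the family are named, and in other lists the 3 called genes with the smallest adjusted p in each direction, except 1 gene that is not reported here. UPK3A and the other markers, EGFR-AS1 and receptor tyrosine kinases in the closing section were chosen with their values known. The alternatives comprised DESeq2 1.42.0, upper quartile and RLE scaling, a stricter filter (50 counts in 2 or more samples) and none, each sample left out in turn, a replicate block, a minimum absolute log2 fold change of 1, and for levels the longest transcript. Scaling by total counts and an offset for spliced length were chosen after seeing the data.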

Additional observations from a re-analysis of the deposited data

How the results depend on the processing

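The log2 fold changes of HBEGF, EGFR, ERBB3 and NRG1 kept their direction and their call under all 13 settings, with ranges of 4.25 to 4.48, -1.72 to -0.96, 0.87 to 1.40 and -1.33 to -0.61, and AREG and BTC were called under none of them. ERBB2 reversed with the spliced length offset (0.24). TGFA, EPGN, ERBB2 and EREG were past the threshold with a log2 fold change under 1 in size, so a minimum of 1 leaves 2 members lower. That minimum left 3063 genes higher and 2322 lower among all genes, 0 higher and 3 lower in the shedding list, 1 and 7 among negative regulators, 2 and 3 among adaptors, and 3 and 1 among ERK output genes. With total count scaling 1 shedding gene was higher, and EGF was called lower, the 1 gene so called in the rest of the family. With the spliced length offset 8 adaptors were lower. As shares of counts, with no length division, EGFR was 78.3% of receptor transcripts in the controls and 57.2% in EV, ERBB2 20.6% and 37.9%, ERBB3 1.12% and 4.92%, and HBEGF 12.9% and 78.5% of ligand transcripts. The labels number the replicates but state no pairing, and deviations of samples with the same number had a correlation of 0.0159. With a replicate block 5957 genes were higher and 5573 lower, and no call among the 10 members changed. Depth limits ERBB4, NRG3 and NRG4, which lay below the filter, and EGF, BTC and EPGN, whose counts were low.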

Other observations

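EGFR was set beside the other human receptor tyrosine kinases, a list added after seeing the data. The list holds 58 genes, among them EGFR, ERBB2, ERBB3 and ERBB4, and 41 of the 58 were tested. Of these 5 reached the count filter in EV only and 3 in WFI only, so no count of calls is given over the list. IGF1R, the receptor of insulin-like growth factors, fell from 57.5 to 13.8 CPM (log2 fold change -2.07, edgeR adjusted p = 4.03e-08). MST1R, the receptor of macrophage-stimulating protein, fell by 1.58 on the log2 scale, and MET, the receptor of hepatocyte growth factor, fell from 376 to 161 CPM (-1.23, edgeR adjusted p = 1.08e-09). AXL, the receptor of GAS6, fell by 0.44 on the log2 scale. These 4 were chosen after their values were seen. IGF1R, with 13941 bases, lies like EGFR in the decile of longest genes, whose median log2 fold change was -0.60. MET lies in a decile with a median of -0.21, and MST1R and AXL in one with -0.01. Values with the offset for spliced length are not given for these 4.

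FGFR3, a fibroblast growth factor receptor often altered in bladder cancer, rose from 1.39 to 18.0 CPM (log2 fold change 3.68, edgeR adjusted p = 3.75e-08). EPHB3 rose from 3.08 to 15.8 CPM and MERTK, a relative of AXL, from 21.6 to 50.8 CPM. FGFR1 stood at 118 and 125 CPM and did not pass the test (log2 fold change 0.07, edgeR adjusted p = 0.217). FLT4, TEK, CSF1R, RET and EPHA10 passed the filter through their EV counts, so they could only rise.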
